A study of Mus musculus with 12 samples.

Results

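The genes described here are 32 cell cycle and DNA replication genes, chosen by name, among the 46095 genes of the count table. They comprise 16 genes of S phase entry and DNA replication, 13 genes of the G2 phase and mitosis, and 3 genes of cell cycle entry or arrest. Of the 32 genes, 28 had enough counts to be tested, among 13743 tested genes in all. RNA was sequenced from whole pancreas of mice at postnatal day 56, with 6 libraries (WT 1 to 6) of wild type C57BL/6J and 6 (AMKO 1 to 6) of Axl-/-Mertk-/- genotype. AXL and MERTK are receptors of the tyrosine kinase class through which phagocytes recognise dying cells. Both genotypes were given caerulein, 100 µg/kg into the peritoneum every hour for 10 doses, and the tissue was taken 12 h after the first dose. Caerulein mimics cholecystokinin, and in excess it makes acinar cells activate and release their enzymes, which inflames the pancreas. Every library therefore comes from injured tissue, and untreated pancreas was not analysed here. For the strain of AMKO the sources used here give nothing, so strain and receptor loss cannot be told apart.

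Before S phase, the MCM2 to MCM7 proteins are loaded at replication origins by CDC6 and CDT1 and form the ring of the replicative helicase, and PCNA then clamps DNA polymerases to the template. Transcription of these genes is driven by E2F factors once cyclin D and cyclin E kinases have inactivated RB, whereas many mitotic genes are switched on later through CHR and CCAAT promoter elements bound by the DREAM and MYB-MuvB complexes and by NF-Y. CDKN1A (p21) inhibits cyclin-dependent kinases, binds PCNA and is a classic p53 target. In the adult pancreas acinar cells rarely divide, and in caerulein pancreatitis acinar cells, stromal cells and infiltrating leukocytes can each contribute cell cycle RNA. In bulk tissue, fewer cells of a type and less RNA per cell cannot be told apart.

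The promoters of these genes are shown first because the motifs through which replication and mitotic genes are known to be timed were unequally shared between the groups. RefSeq promoters of GRCm38.p6, from 250 bases before to 50 bases after a start site, were found for 25 of the 32 genes, with 2 start sites each for Mcm7 and Cdkn1a. Gins2, Ccna2, Ccnd1, Ccne2, Ccnd2, Mcm4 and Aurkb had no entry in the table. Below, the 120 bases before the start are given 5′ to 3′ on the gene's strand, with motif matches in capitals. On both strands, the E2F motif was sought in 4 forms, of which the first is TTCCCGC, another is TTCGCGC, another is TTGCCGC and the last is TTGGCGC. The CHR was sought in its form TTTGAA and in its form TTCGAA, and the CCAAT box by its name. Neighbouring E2F words can overlap each other or a CCAAT box, and TTCGAA reads the same on both strands. For Cdkn1a alone, the capitals mark matches to the p53 half-site instead.
Mcm6, replicative helicase, chr1:128359706-128359825, minus strand: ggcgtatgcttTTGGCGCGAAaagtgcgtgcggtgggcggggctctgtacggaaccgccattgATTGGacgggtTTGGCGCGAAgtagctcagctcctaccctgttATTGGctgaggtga
Rrm1, ribonucleotide reductase, chr7:102441575-102441694, plus strand: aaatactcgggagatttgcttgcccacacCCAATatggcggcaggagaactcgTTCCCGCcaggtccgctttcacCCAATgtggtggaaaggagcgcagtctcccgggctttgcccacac
Mki67, proliferation antigen, chr7:135716380-135716499, minus strand: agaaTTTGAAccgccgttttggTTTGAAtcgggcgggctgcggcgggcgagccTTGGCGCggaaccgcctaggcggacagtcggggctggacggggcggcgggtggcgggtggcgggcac
Top2a, topoisomerase, chr11:99024190-99024309, minus strand: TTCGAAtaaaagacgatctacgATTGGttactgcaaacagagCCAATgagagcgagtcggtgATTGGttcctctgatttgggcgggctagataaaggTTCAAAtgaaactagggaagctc
Bub1b, spindle checkpoint, chr2:118598091-118598210, plus strand: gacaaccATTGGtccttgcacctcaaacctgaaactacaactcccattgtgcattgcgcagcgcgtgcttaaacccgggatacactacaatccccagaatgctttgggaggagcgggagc
Cdkn1a, upstream start site, chr17:29090859-29090978, plus strand: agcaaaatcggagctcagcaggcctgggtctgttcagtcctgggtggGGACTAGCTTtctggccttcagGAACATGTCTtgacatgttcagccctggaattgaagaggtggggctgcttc

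An E2F word was present in 9 of 14 promoters of replication genes (64.3%) and in 3 of 11 of mitotic genes (27.3%), beside 9.57% of all 32851 promoters in the table. A CHR word was present in 2 of 14 promoters of replication genes (14.3%) and 9 of 11 of mitotic genes (81.8%), beside 19.2% of all. CCAAT was present in 64.3% of the replication promoters and 90.9% of the mitotic ones, beside 37.4% of all. Mcm6, shown above, had 5 E2F matches in its 300 bases, the most of any promoter of these genes, and Top2a had 4 CHR matches. The Bub1b promoter held 2 CHR words outside the stretch printed and 1 CCAAT box within it. The upstream Cdkn1a promoter held 2 p53 half-sites, which occurred at least once in 8.36% of all promoters, and none of the other words. The promoter at the other Cdkn1a start site held none. A half-site was also present in 2 of 11 mitotic promoters (18.2%, Bub1b and Birc5) and 1 of 14 replication promoters (7.14%, Tyms). These are matches of letters and not measured binding sites.

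Library totals ran from 10668637 to 15184371 counts. Values below are CPM, counts divided by TMM-scaled library size, and fold changes are log2 AMKO minus wild type from edgeR's quasi-likelihood test, with Benjamini-Hochberg adjustment over all 13743 genes and a threshold of 0.05. Axl, the targeted gene whose transcript checks the labels, had a lowest, median and highest value of 44.4, 59.8 and 77.1 CPM in wild type and of 5.60, 9.44 and 11.5 CPM in AMKO, without overlap (log2 fold change -2.69, adjusted p = 1.947e-06). Mertk was not called (log2 fold change -0.030, adjusted p = 0.968), and a count over the whole gene does not check a deletion of part of it. AMKO 1 and AMKO 5 stood apart in B cell markers. Summed over 13 B and plasma cell markers they held 294 and 102 CPM, against 2.70 to 9.06 in the other AMKO libraries and 1.55 to 56.4 in wild type. A trace of liver transcripts was lower in WT 1 to 3 (5.55 to 13.5 CPM) than in the other libraries (27.7 to 59.7 CPM). The labels do not say that each sample came from its own mouse, so p-values measure the spread between samples.

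Between the genotypes, 4 of the 28 tested genes changed. Mcm6, Pcna and the spindle checkpoint gene Bub1b fell and Cdkn1a rose in AMKO, while the other 24 did not pass the test. DESeq2 called 5 of the 28 (9.42% of all genes), limma voom 6 (12.1%), and edgeR with an acinar marker score as covariate 1 (3.86%). Across all tested genes, 3.37% were lower and 2.41% higher in AMKO, 5.78% in either direction. Every AMKO library lay below every wild type library for Mcm6 and Bub1b, an arrangement found in 2.30% of all tested genes. The fitted fold change was below 0 for 13 of 16 replication genes (median -0.11) and for 6 of 9 tested mitotic genes (median -0.35, or -0.22 without Bub1b), beside 6913 of 13743 genes in all. These medians were sensitive to single libraries. The replication median was -0.17 without WT 3, -0.072 without WT 4, -0.068 without AMKO 2 and -0.18 without AMKO 5. The mitotic median was -0.56 without AMKO 1 and -0.15 to -0.11 without WT 2, AMKO 2, AMKO 3 or AMKO 4. In fits that each left out 1 library, Bub1b was lower in 12 of 12, and it was the only gene called lower without WT 1, WT 2, WT 4, WT 6, AMKO 2, AMKO 3 or AMKO 6.

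**Figure D1:**
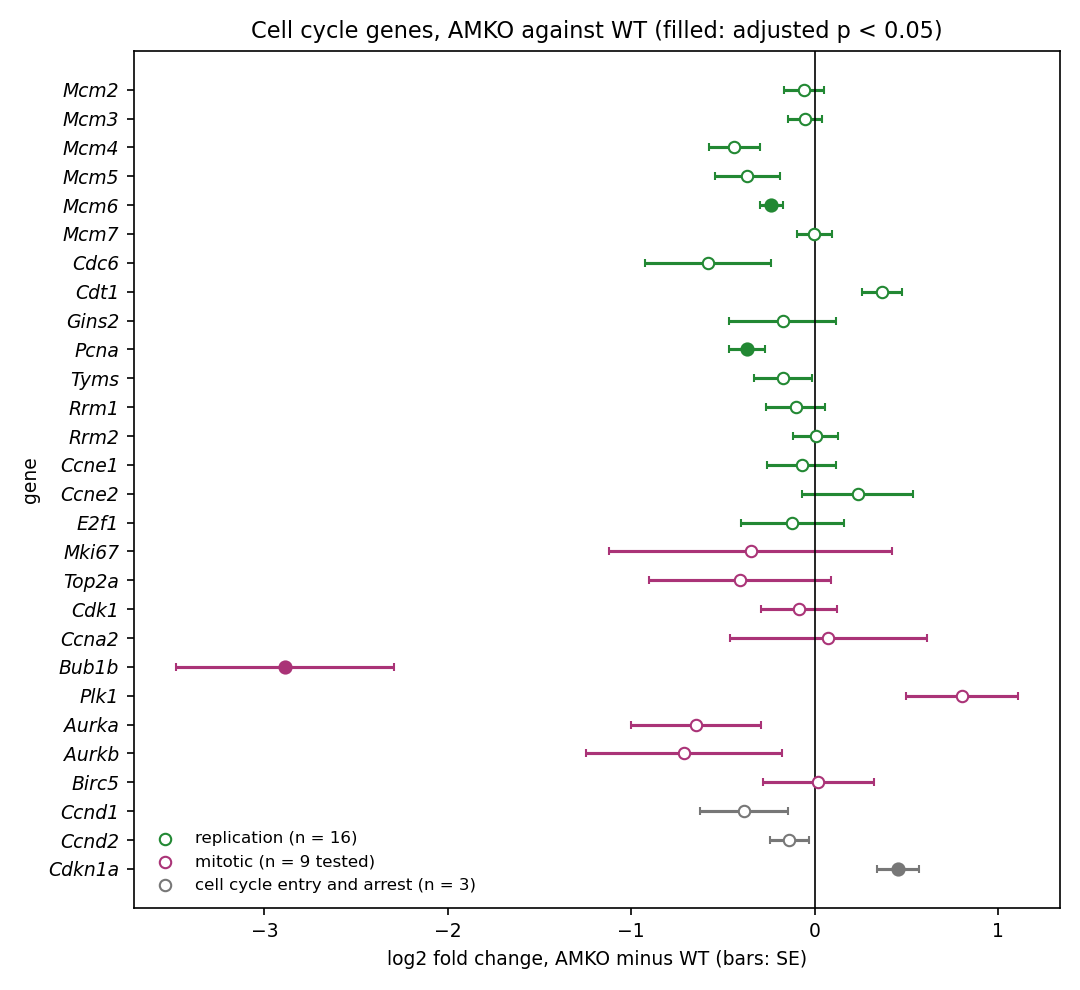
Log2 fold change (AMKO minus wild type, x axis) of each tested gene (y axis), by gene group, with bars of 1 SE and 6 libraries per genotype. Bub1b at -2.89 lies far from the other genes, and the SEs of several mitotic genes are wider than those of the replication genes.

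Among the helicase subunits, Mcm6 was the most abundant. It lay at 73.3 CPM in the lowest, 75.0 in the median and 89.5 in the highest wild type library, and at 62.9, 65.7 and 68.9 CPM in AMKO. The AMKO libraries lay close together and all were below wild type. The log2 fold change was -0.24 (SE 0.062, adjusted p = 0.0375). The decrease was small, and leaving out single libraries raised its adjusted p to as much as 0.0831, with a call in 1 of 12 such fits. Mcm4 had a median of 15.4 CPM in wild type against 10.5 CPM in AMKO, with overlapping ranges, and was not called (log2 fold change -0.44, SE 0.14, adjusted p = 0.0796). Mcm5 had medians of 11.9 and 9.39 CPM and was not called either (-0.37, SE 0.18, adjusted p = 0.240). Both genes were highest within AMKO in AMKO 5 and next highest in AMKO 1. In the fit without AMKO 1 and AMKO 5 both were called (-0.63, adjusted p = 0.00656 for Mcm4 and -0.57, adjusted p = 0.0327 for Mcm5). That fit called 7.12% of all genes lower. Leaving out the highest AMKO libraries of a gene lowers its AMKO level by itself, so these calls do not describe the genotype. The remaining subunits differed little between genotypes, with log2 fold changes of -0.057 for Mcm2, -0.055 for Mcm3 and -0.0020 for Mcm7, each with an SE of 0.092 to 0.11. For Mcm7 the count is uncertain, since Gm5487 shares 97.7% of letters over 2157 bases and other genes overlap 12.6% of its exon bases. The 6 subunits, which assemble in equal numbers into the ring, therefore did not show equal fitted changes, although differences between subunits were not tested.

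Pcna, the sliding clamp of DNA polymerases, was next after Mcm6 in abundance among the replication genes by CPM. It lay at 42.9, 45.6 and 60.1 CPM in the lowest, median and highest wild type library, and at 33.8, 37.2 and 43.9 CPM in AMKO. The ranges overlapped through AMKO 4 and the lower wild type libraries. Pcna fell by 0.37 on the log2 scale (SE 0.099, adjusted p = 0.0431), and its adjusted p reached 0.104 when single libraries were left out, with a call in 3 of 12 such fits. With only WT 1 to 3 as wild type its log2 fold change was -0.21. A near-identical pseudogene, Pcna-ps2, shares 99.2% of letters over 781 bases, so reads of both may be mixed in the count. Pcna (chr2:132249162-132253314, GRCm38) lies 3.446 Mb from Mertk. Within 10 Mb of Mertk, 25 of 179 tested genes (14.0%) were called lower, against 3.37% of all genes, while within 10 Mb of Axl 2.26% were called in either direction. An allele carried along with the targeted locus and receptor loss cannot be told apart for Pcna.

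Cdt1, which loads the helicase and is degraded once S phase begins, had the opposite sign. It lay at 6.36, 7.61 and 8.38 CPM in wild type and at 8.15, 9.67 and 10.8 CPM in AMKO. Only AMKO 4 fell within the wild type range, and the difference missed the threshold (log2 fold change 0.37, SE 0.11, adjusted p = 0.0634). Its partner Cdc6 was scarce, with median CPM of 1.40 for wild type and of 1.03 for AMKO, and was not called (-0.58, SE 0.34, adjusted p = 0.343), and a near-identical copy, Gm9430, makes its count uncertain. Gins2, part of the GINS complex that activates the helicase, was not called (-0.18, adjusted p = 0.773), and 67.3% of its exon bases overlap Gse1, so its counts are uncertain.

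The genes of nucleotide supply showed no detectable difference. Rrm2, the regulated subunit of ribonucleotide reductase, had medians of 15.4 CPM in wild type against 15.9 CPM in AMKO. The log2 fold change was 0.0051 (SE 0.12, adjusted p = 0.988). The large subunit Rrm1 (-0.10, SE 0.16) and thymidylate synthase Tyms (-0.17, SE 0.16) gave adjusted p of 0.753 and 0.555. The counts of Rrm2 (1 near-identical copy) and Tyms (10 transcripts with near-identical stretches) are uncertain. The cyclin E genes, whose kinase starts S phase, were also not called, with log2 fold changes of -0.071 for Ccne1 (SE 0.19, adjusted p = 0.863) and 0.23 for Ccne2 (SE 0.30, adjusted p = 0.696), of which 17.4% of exon bases overlap Ints8. E2f1, the activator of many of these genes, had medians of 2.34 CPM in wild type against 2.18 in AMKO (-0.12 on the log2 scale, SE 0.28, adjusted p = 0.838).

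**Figure D2:**
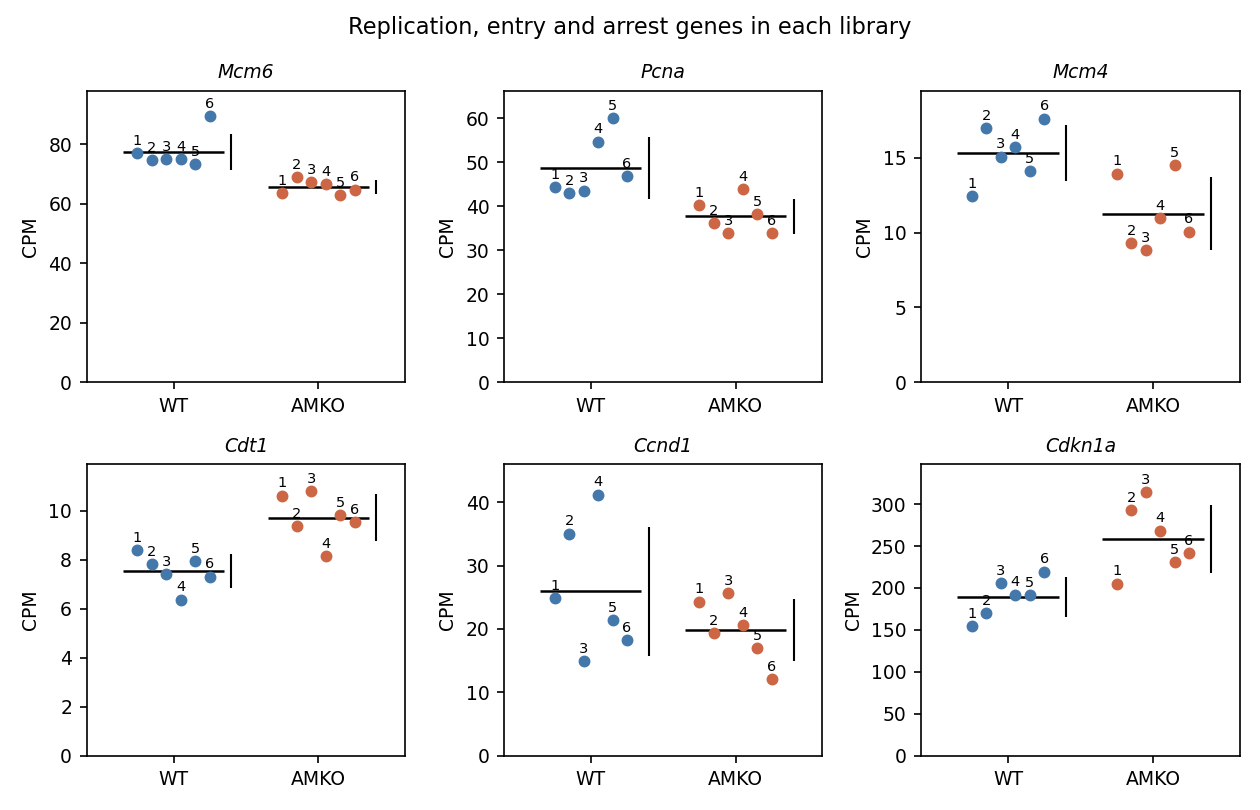
CPM (y axis) of replication genes, Ccnd1 and Cdkn1a in each library by genotype (x axis), numbered by replicate, with horizontal lines at the mean and vertical lines of 1 SD. The AMKO values of Mcm6 (62.9 to 68.9 CPM) lie below all wild type values, whereas those of Cdkn1a are shifted upward with overlap.

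Bub1b encodes BUBR1, the kinase-like protein of the spindle assembly checkpoint that holds the anaphase-promoting complex until chromosomes are attached. Its CPM was 4.13, 5.39, 4.40, 2.99, 3.46 and 3.72 in WT 1 to 6 and 1.91, 0.238, 0.0850, 0.0849, 0.587 and 0 in AMKO 1 to 6. All AMKO libraries were below all wild type libraries, and AMKO 6 held no count. The log2 fold change was -2.89 (SE 0.59, adjusted p = 0.0125). The call held in 12 of 12 fits that each left out 1 library, with an adjusted p of at most 0.0356. It was lost when only WT 4 to 6 (adjusted p = 0.128) or only WT 1 to 3 (0.0749) stood for wild type, and without WT 3, WT 6, AMKO 3 and AMKO 6, the libraries lowest in neutrophil and monocyte markers (0.107). The fold change was -2.64, -3.11 and -2.41 in these fits, against -2.89 with all libraries. They called 1.17%, 1.62% and 0.705% of all genes. No overlapping gene or near-identical copy was found for Bub1b.

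Bub1b also lies on the chromosome of Mertk. The gene (chr2:118598211-118641591, GRCm38) lies 10.057 Mb from Mertk on the same chromosome, just outside the 10 Mb window in which 21.2% of tested genes were called. Its checkpoint partner Bub1 lies 0.867 Mb from Mertk, at chr2:127801122-127831865, and was too scarce to test. Bub1 ran from 0 to 0.781 CPM in wild type and from 0 to 0.802 CPM in AMKO, with 3 AMKO libraries and 1 wild type library at 0. Whether the level of Bub1b follows an allele linked to the Mertk locus was not tested.

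The other mitotic genes were low, and Mki67, Top2a, Aurkb and Ccna2 varied widely among AMKO libraries. Mki67, the gene of the proliferation marker Ki-67, had 4.81, 5.89, 1.22, 4.42, 3.55 and 2.06 CPM in WT 1 to 6 and 11.5, 0.238, 0.595, 0.424, 3.59 and 0.324 CPM in AMKO 1 to 6. AMKO 1 was above every wild type library, AMKO 5 was within their range, and the other 4 were below all of them. The log2 fold change over all libraries was -0.35 with an SE of 0.77 (adjusted p = 0.831). Limma voom with quality weights, which gives divergent libraries less weight, called Mki67 lower over all 12 libraries (-2.30, SE 0.66, adjusted p = 0.0366). Top2a, the topoisomerase that untangles replicated chromosomes, had median CPM of 4.04 for wild type and of 2.17 for AMKO, with 9.13 CPM in AMKO 1 and 5.06 CPM in AMKO 5. It was not called (-0.41, SE 0.50, adjusted p = 0.678). Aurkb, the chromosomal passenger kinase, had 2.53 CPM in AMKO 1, the highest of all libraries, and 0.108 to 0.733 CPM in the other AMKO libraries, all below the lowest wild type value of 0.841 CPM. Over all libraries its log2 fold change was -0.71 (SE 0.54, adjusted p = 0.466). Ccna2, the cyclin of S and G2 phase, reached 2.34 CPM in AMKO 1 and was not called (0.075, SE 0.54, adjusted p = 0.952), and 12.5% of its exon bases overlap Exosc9.

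The rest of the mitotic genes gave no call. Cdk1, the mitotic kinase, had medians of 4.43 CPM in wild type against 3.74 in AMKO (change of -0.085 on the log2 scale, SE 0.21, adjusted p = 0.849). Birc5, which encodes the passenger protein survivin, was near equal in the genotypes (0.020, SE 0.30, adjusted p = 0.981). Aurka, the spindle pole kinase, was not called either (-0.65, SE 0.35, adjusted p = 0.304). Plk1, the polo kinase of mitotic entry, went the other way, with median CPM of 0.495 for wild type and of 0.997 for AMKO and 4 wild type libraries below all AMKO libraries (0.80, SE 0.30, adjusted p = 0.135). The cyclin B genes Ccnb1 and Ccnb2 and Cdc20, an activator of the anaphase-promoting complex, were too scarce to test, at 0.0748 to 1.79 CPM. Ccnb1 also has 5 near-identical copies.

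**Figure D3:**
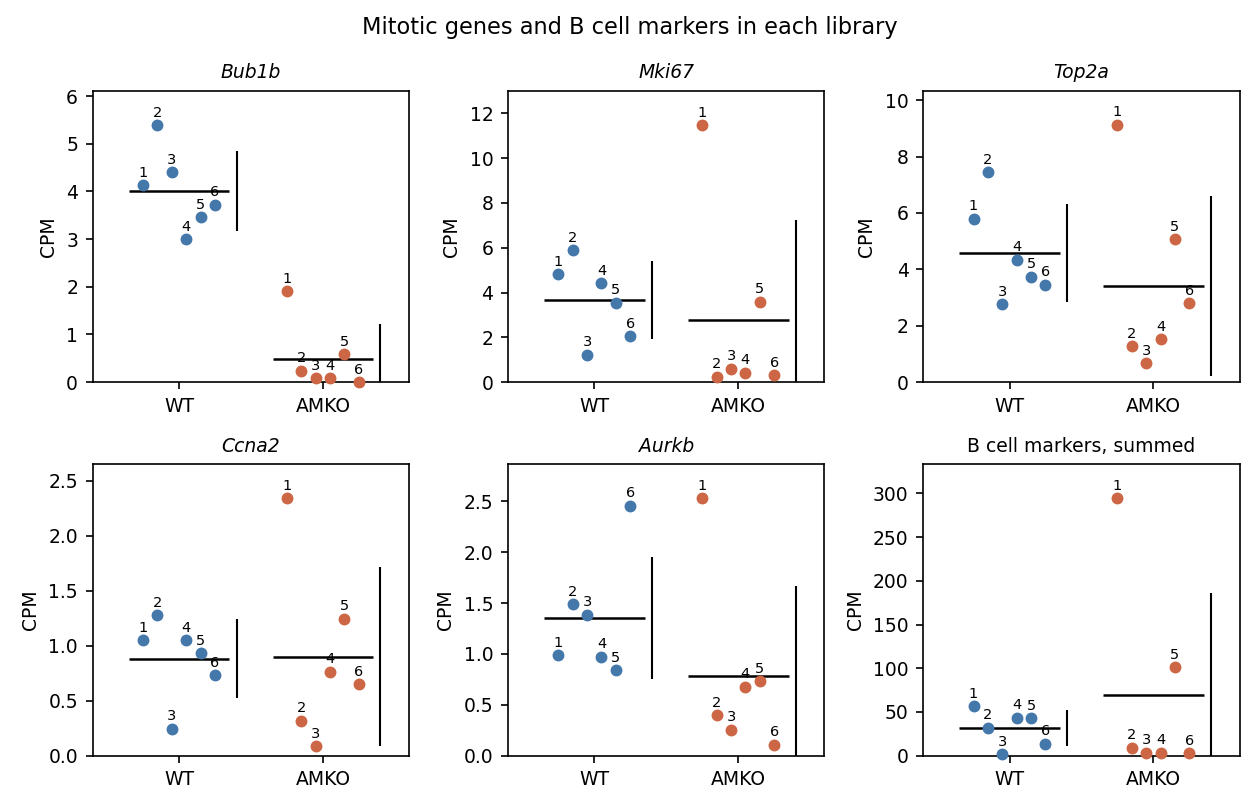
CPM (y axis) of mitotic genes in each library by genotype (x axis), numbered by replicate, with horizontal lines at the mean and vertical lines of 1 SD, and a panel of the summed B cell markers. AMKO 1 is the highest AMKO library for Mki67 (11.5 CPM), Top2a (9.13 CPM), Bub1b (1.91 CPM) and the B cell markers (294 CPM).

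A score per library, the mean of centred log2 CPM over the tested genes of a group, separated the groups of genes. The mitotic score lay between -0.042 and 0.71 in wild type, and in AMKO it was 0.83 in AMKO 1, 0.29 in AMKO 5 and -0.92 to -0.81 in the other 4 libraries. The replication score stayed within -0.058 to 0.16 in wild type and -0.20 to 0.14 in AMKO. Thus the AMKO libraries fell into a high pair and a low set of 4 by mitotic score, with wild type between AMKO 1 and the low set, while the replication scores of the genotypes overlapped. AMKO 1 held the highest level of 5 of the 9 tested mitotic genes and of 0 of the 16 replication genes. The replication minus mitotic score was -0.32 ± 0.20 (SD, n = 6) in wild type against 0.32 ± 0.66 (SD, n = 6) for AMKO, which differ by 0.63, 0.31 without Bub1b and 0.40 without AMKO 3 or without AMKO 4. Scatter between libraries of a genotype also separated the groups. The biological coefficient of variation exceeded that of genes of like abundance for 0 of 16 replication genes and 5 of 9 mitotic genes, namely Mki67, Top2a, Bub1b, Ccna2 and Aurkb, beside 21.2% of all tested genes.

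**Figure D4:**
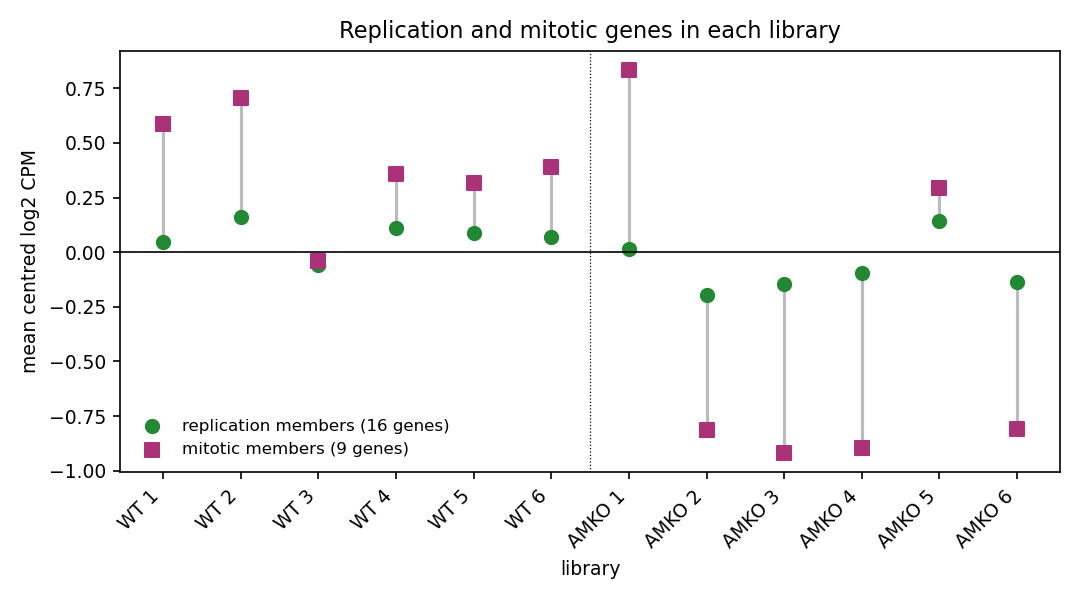
Replication score and mitotic score of each library, as the mean of centred log2 CPM over 16 and 9 tested genes, by genotype and replicate number. AMKO 1 (0.83) and AMKO 5 (0.29) lie at wild type mitotic scores or above, and the other AMKO libraries lie at -0.92 to -0.81.

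B cell, T cell and monocyte markers were highest in the 2 AMKO libraries with high mitotic scores, and neutrophil markers were not. AMKO 1 and AMKO 5 held 1702 and 1937 CPM over 15 monocyte and macrophage markers, against 624 to 1157 in the other AMKO libraries and 432 to 1147 in wild type. Over 14 neutrophil markers they held 489 and 825 CPM, with 582 CPM in AMKO 2, which had a low mitotic score, and 299 to 1217 CPM in wild type. Of the 13 B and plasma cell markers, 9 were tested and 0 were called by edgeR (0 also at an unadjusted p under 0.05, by DESeq2 and by limma voom), and the defining genes Ighm and Igkc were at 0 in every library. The 13 T and NK cell markers summed to 18.9 CPM in AMKO 1 and 8.51 CPM in AMKO 5, against 1.30 to 4.50 CPM in wild type, with Trac at 0. The 4 AMKO libraries with low mitotic scores held 612 to 666 CPM of stellate cell and fibroblast markers, below the wild type range of 777 to 1332. The acinar marker Prss2 was also at 0 in every library, and why these markers had no counts was not tested. Summed acinar markers overlapped between the genotypes. Of 13 tested acinar markers, 2 were higher, the transcription factor genes Ptf1a (log2 fold change 1.21, adjusted p = 0.0145) and Bhlha15 (0.86, adjusted p = 0.00320). A further acinar transcription factor gene, Rbpjl, had the opposite sign and was not called (-0.26, adjusted p = 0.421). Of 10 duct markers, 3 were lower (Spp1, Epcam and Muc1, at -0.62, -0.50 and -0.53). The duct score, with equal weight per marker, lay at 0.11 to 0.23 in wild type and -0.30 to -0.023 in AMKO, without overlap. Summed duct markers overlapped, at 9380 to 12269 CPM in wild type and 8285 to 13134 CPM in AMKO. Of 10 endothelial markers, 2 were lower, the receptor genes Kdr (-0.83) and Flt1 (-0.55). Of 11 stellate cell and fibroblast markers, 1 was lower, the receptor gene Pdgfrb (-0.62). Of 15 monocyte and macrophage markers, 1 was higher, Mrc1 (0.81). Over all tested genes, 3.37% were lower and 2.41% higher. These called markers and Rbpjl were named after their values were seen. The part of any of these cells in the mitotic signal was not tested.

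In the fit without AMKO 1 and AMKO 5, 7 of the 28 genes were lower and 1 higher. Mki67 had a log2 fold change of -3.16 (adjusted p = 0.00202), Top2a of -1.56 (0.0158), Aurkb of -1.84 (0.0224) and Bub1b of -5.07 (3.056e-05). Mcm4, Mcm5 and Pcna were the other genes called lower. In that fit 7.12% of all tested genes were lower and 8.03% higher. These libraries were left out for their B cell markers, which were high in the same libraries as the mitotic genes, so the fit describes the other 4 AMKO libraries and not the genotype as a whole.

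Of the entry and arrest genes, Cdkn1a changed. It lay at 155, 192 and 220 CPM in the lowest, median and highest wild type library and at 205, 255 and 314 CPM in AMKO. Most AMKO libraries lay above all of wild type, and AMKO 1, at 205 CPM, was the only one within its range. Cdkn1a rose by 0.45 on the log2 scale (SE 0.11, adjusted p = 0.0309), with a call in 5 of 12 fits without 1 library and an adjusted p of at most 0.0770 in them. The D-type cyclins, which relay growth signals to CDK4 and CDK6, were not called. Ccnd1 had medians of 23.1 CPM in wild type against 19.97 in AMKO (-0.39, SE 0.24, adjusted p = 0.369), and 23.4% of its exon bases overlap LTO1. Ccnd2 had medians of 67.4 and 58.7 CPM (-0.14, SE 0.10, adjusted p = 0.470).

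Per length (RPKM, the CPM divided by exon kilobases), Cdkn1a was the highest of the 32 genes at 53.2 in wild type and 72.9 in AMKO. Pcna followed at 20.3 and 15.7, and Mcm6 at 16.6 and 14.1. The other MCM genes lay between 1.86 for Mcm2 and 4.68 for Mcm7 in wild type, all well below Mcm6. The mitotic genes lay between 0.0777 for Bub1 and 0.944 for Cdk1 in wild type, so their range overlapped only the low end of the replication genes, where Cdc6 was at 0.314 and Ccne2 at 0.334. Bub1b was at 0.940 in wild type, close to Cdk1, and at 0.113 in AMKO.

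Further genes of the same pathways were taken from fixed lists. Of all 13743 genes, DESeq2 called 650 lower and 645 higher, and limma voom 855 lower and 809 higher. Counts at an unadjusted p under 0.05 are given throughout without a share over all genes, so they were not read as an excess. Of 43 tested other replication genes, 0 were called by edgeR in either direction (7 at an unadjusted p under 0.05, 0 by DESeq2 and 3 lower by limma voom, Pole, Uhrf1 and Dtl), and their median log2 fold change was -0.12. The most abundant were Pold3, a polymerase delta subunit (-0.16, adjusted p = 0.335), and Orc4 of the origin recognition complex (-0.057, adjusted p = 0.726). Of 29 tested other mitotic genes, 0 were called by edgeR (4 at an unadjusted p under 0.05, 0 by DESeq2 and 4 lower by limma voom, Cenpe, Kif20b, Smc2 and Ncapd2), with a median of -0.16. Their score was again highest within AMKO in AMKO 5 (0.34) and AMKO 1 (0.13), and at -0.55 to -0.045 in the other 4 libraries. Wild type lay at -0.17 to 0.22, a range that held AMKO 1 and AMKO 6 (-0.045). This list therefore did not set all 4 of these libraries apart from wild type. The checkpoint gene Bub3, a binding partner of BUBR1, was near equal in the genotypes (-0.10, adjusted p = 0.437), and so was the condensin gene Smc4 within its wide spread (0.21, SE 0.19, adjusted p = 0.559).

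Among 17 tested E2F, RB and DREAM regulators, Tfdp2, a dimer partner of E2F proteins, fell and no other was called by edgeR. That was 5.88% of this list, beside 3.37% of all genes called lower. DESeq2 and limma voom also called E2f4, a repressor E2F, higher (edgeR log2 fold change 0.31, adjusted p = 0.0675). Tfdp2 averaged 31.8 ± 2.22 CPM (SD, n = 6) in wild type against 24.1 ± 4.01 CPM (SD, n = 6) for AMKO (log2 fold change -0.40, SE 0.10, adjusted p = 0.0323, up to 0.0820 without single libraries). Its call held in only 2 of 12 fits without 1 library. Among 13 other cyclins, kinases and drivers of entry, Myc rose and no other was called by edgeR, DESeq2 or limma voom. By edgeR that was 7.69% of this list, beside 2.41% of all genes called higher. The growth regulator Myc lay at 21.4, 27.0 and 30.2 CPM in the lowest, median and highest wild type library and at 36.4, 44.9 and 49.4 CPM in AMKO. Every AMKO library was above every wild type library, as for 1.24% of all genes, and the log2 fold change was 0.76 (SE 0.11, adjusted p = 0.00153, at most 0.00558 without single libraries). Among 5 tested other inhibitors of cyclin-dependent kinases, 0 were called by edgeR, and 0 at an unadjusted p under 0.05, by DESeq2 or by limma voom. Cdkn1c (p57) had a log2 fold change of -0.40 (adjusted p = 0.477). Cdkn1b (p27), a relative of Cdkn1a, was near equal at 26.0 ± 2.07 and 25.6 ± 2.13 CPM (SD, n = 6 each), with an adjusted p of 0.905.

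Of 20 tested p53 targets, edgeR called 2 lower, beside 3.37% of all genes, and 0 higher, with a median of 0.085. At an unadjusted p under 0.05, 4 were higher, while DESeq2 called 2 higher, Sesn2 and Bbc3, and limma voom 0. Thus no listed target joined Cdkn1a among the genes called higher by edgeR. The stress-response gene Ddit4 fell from 441 ± 95.2 to 285 ± 36.8 CPM (SD, n = 6 each), which is -0.63 on the log2 scale (SE 0.14, adjusted p = 0.0188, up to 0.0515 without single libraries). The polo-like kinase gene Plk2 fell from 39.6 ± 4.95 to 28.6 ± 5.24 CPM (-0.47, SE 0.12, adjusted p = 0.0313, up to 0.0747). In fits without 1 library, the call held in 10 of 12 for Ddit4 and in 5 of 12 for Plk2. Both are also induced through other stress pathways.

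Of 15 tested DNA damage checkpoint genes, edgeR called 2 lower, beside 3.37% of all genes, and 0 higher, with a median log2 fold change of -0.30 and 12 below 0. At an unadjusted p under 0.05, 7 were lower and 1 higher. No share over all genes stands beside these counts, so they were not read as a shift of the list. DESeq2 called 4 lower, adding Hus1 and Brca2, beside 650 of all 13743 genes. Limma voom called 6 lower, adding Chek2 and Atm to those, beside 855 of all genes. Neither called any higher. The repair gene Brca1 lay at 5.61, 5.92 and 6.93 CPM in wild type and at 2.86, 3.81 and 5.28 CPM in AMKO. All AMKO libraries were below wild type, and the log2 fold change was -0.65 (SE 0.16, adjusted p = 0.0264). Topbp1, which activates the ATR checkpoint kinase and takes part in origin firing, lay at 30.7, 33.2 and 37.5 CPM in wild type and at 21.2, 24.2 and 29.5 CPM in AMKO, again without overlap (-0.42, SE 0.098, adjusted p = 0.0240). Hus1 was also without overlap but missed the edgeR threshold (-0.30, adjusted p = 0.0544). Such an arrangement was found in 2.30% of all tested genes. Brca1 and Topbp1 each kept the call in 7 of 12 fits without 1 library, with an adjusted p of at most 0.0680 for Brca1 and 0.0607 for Topbp1.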

How the data were processed

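Total RNA of 12 pancreas samples was sequenced. HISAT2 2.0.4 and build mm10 were used, per the submitters' processing notes. The authors deposited raw counts per gene. The counter, annotation and strand setting were not stated in the sources used here. Samples were grouped by the genotype in their labels, 6 for each genotype. The genotypes were compared with edgeR 4.0.16 under R 4.3.3, using its quasi-likelihood test, TMM scaling and filterByExpr, with Benjamini-Hochberg adjustment. CPM used TMM-scaled library sizes, scores a prior count of 2, and RPKM the exon lengths of GENCODE M21 (GRCm38). At these depths 1 count was worth 0.0617 to 0.108 CPM, so genes near that level are imprecise. No library repeated another of its genotype (chi-square over degrees of freedom, 9.15 to 66.62 for all pairs). Copies were sought with BLAST 2.17.0 (95% identity over 300 bases). The scripts were tested on simulated data.

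The genes, lists, tests and alternatives were chosen with earlier results of these data known. Named are all 32 genes, Axl, up to 4 called genes of each other list of the pathways (the 2 most abundant where none was called) and markers at 0. Mertk, Rbpjl and the genes called in marker lists or by another tool alone were named after their values were seen. The p53 half-site search was added later, as were the values without Bub1b. Alternatives were other scalings, filters, DESeq2 1.42.0, limma 3.58.1 voom, a replicate block, an acinar covariate and subsets of libraries.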

Additional observations from a re-analysis of the deposited data

Results flagged for a closer look

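In 8 of 70 groups of 6 libraries, each for a gene or a score, 1 library lay far from the other 5. The rule flags about 1 in 20 groups by chance only if groups are independent and values normally distributed. The groups here share libraries and CPM was not put on a log scale, so the count of 8 was not read as an excess. In AMKO 1, Mki67 was at 11.5 CPM with the next AMKO library at 3.59, Aurkb at 2.53 with the next at 0.733, Bub1b at 1.91 with the next at 0.587, and Ccnb2 at 1.48 with the next at 0.541. AMKO 1 was also the library with the highest B cell markers. AMKO 5 held 3.81 CPM of Gins2, with the next AMKO library at 1.87. In wild type, Mcm6 was at 89.5 CPM in WT 6 with the next at 76.9, Mcm5 at 15.5 CPM in WT 5 with the next at 12.2, and Cdk1 at 6.26 CPM in WT 5 with the next at 4.73. The causes were not tested.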

How the results depend on the processing

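Of the 28 tested genes, 1 was higher and 3 were lower with edgeR. The number lower was 1 with RLE scaling, with library totals, without a count filter and with the acinar covariate, 5 with limma voom and 7 without AMKO 1 and AMKO 5. With only WT 4 to 6, only WT 1 to 3, or without the 4 libraries lowest in neutrophil and monocyte markers, edgeR called 0 lower and 0 higher (at an unadjusted p under 0.05, 4 lower and 2 higher, 2 lower and 2 higher, and 4 lower and 1 higher). DESeq2 called 2 higher, adding Cdt1, and the acinar covariate 0 (3 at an unadjusted p under 0.05). Leaving out each library in turn gave 0 to 1 higher and 1 to 4 lower (4 without AMKO 1, and 0 higher without WT 1, WT 2, WT 4, WT 5, AMKO 2, AMKO 3 or AMKO 4), medians of -0.18 to -0.068 for replication genes and of -0.56 (without AMKO 1) to -0.11 (without AMKO 2) for mitotic genes, and score differences of 0.40 to 0.86. The mitotic median was -0.96 without AMKO 1 and AMKO 5, -0.89 with limma voom, -0.66 with the replicate block, -0.22 with the acinar covariate or without the 4 libraries, and -0.18 with only WT 4 to 6. The replication median was -0.21 without AMKO 1 and AMKO 5, -0.19 with limma voom, -0.18 with only WT 4 to 6, -0.066 with only WT 1 to 3 and -0.045 with the acinar covariate. Over all genes, 794 were called with edgeR, 1295 with DESeq2, 1664 with limma voom and 2115 without AMKO 1 and AMKO 5, where 53% of calls were higher, against 41.7%. Without single libraries 411 (without AMKO 3) to 1140 genes (without AMKO 5, 54.8% higher) were called.

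Some uncalled fold changes changed sign, among them Aurkb (-0.71 with all libraries), Ccne2 (0.23) and Gins2 (-0.18). With only WT 1 to 3, the values were 0.047 for Mcm7, -0.10 for Rrm2, 0.073 for Ccne1, -0.023 for Ccne2, 0.037 for Cdk1 and -0.26 for Birc5. Without AMKO 1 and AMKO 5, the values were 0.036 for Mcm7, 0.037 for Ccne1, -0.96 for Ccna2 and -0.32 for Birc5. Without the libraries lowest in neutrophil and monocyte markers, the values were 0.017 for Mcm2, 0.080 for Gins2, -0.042 for Ccne2, 0.047 for Aurkb and -0.042 for Birc5. With the acinar covariate, the values were 0.025 for Mcm2 and -0.011 for Rrm2. With limma voom, the values were -0.69 for Ccna2 and -0.21 for Birc5. Rrm2 was -0.019 with library totals. Mcm7 was 0.011 with RLE scaling, 0.010 with DESeq2, 0.0079 without a count filter and 0.0070 without the 50 most counted genes. Without single libraries the values spanned -0.10 to 0.0062 for Mcm2, -0.030 to 0.058 for Mcm7, -0.052 to 0.11 for Rrm2, -0.31 to 0.026 for E2f1, -0.26 to 0.015 for Cdk1, -0.50 to 0.30 for Ccna2 and -0.17 to 0.21 for Birc5. The causes were not tested. Deviations of same-numbered samples correlated above 0.1 in 4 of 6 pairs (-0.16 to 0.346), and 2 of 6 wild type libraries correlated best with their own number, so the numbers were not taken to pair samples. A replicate block called 910 genes, with 1 of the 28 genes higher and 2 lower, and gave -0.15 for Ccna2 and -0.032 for Birc5.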

Other observations

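Replication-dependent histone genes, whose transcripts accumulate in S phase and mostly lack poly(A) tails, were largely below the count filter. Of 20 listed, 5 were tested and 0 were called by edgeR (2 at an unadjusted p under 0.05, both higher, and 0 by DESeq2 and by limma voom). Hist1h3c, Hist1h4b and Hist2h3b were at 0 in all libraries. The linker histone gene Hist1h1c averaged 137.5 ± 37.4 CPM in wild type against 191 ± 47.2 CPM in AMKO (SD, n = 6 each, log2 fold change 0.48, adjusted p = 0.175). Hist1h2bc was at 89.1 ± 19.8 and 102 ± 15.03 CPM (0.19, adjusted p = 0.460). Of the germinal centre and thymocyte markers, Rag1 and Rag2 were at 0 in all libraries. Bcl6 was called higher, 1 of 4 tested beside 2.41% of all genes (0.33, adjusted p = 0.0350), also by DESeq2 and limma voom. Of the 4 tested markers, 2 had a fitted fold change below 0, and the median was 0.026.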
